A study of Mus musculus with 6 samples.

Results

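The 10 genes described here act in or around fatty acid oxidation in the peroxisome, and were found by their symbols (Pex11a, Acaa1a, Acaa1b, Hsd17b4, Crot, Ech1, Abcd2, Abcd3, Cat and Decr2) among the 18443 genes listed in mouse liver RNA-seq libraries. All 10 were measured in each of the 6 libraries and passed the minimum of 10 counts in every comparison. The livers came from male C57BL/6 mice (C57BL/6J in the study's methods), with an age of 6 to 8 weeks in the labels, and there was 1 library for each condition. In the diet model, SD was the chow diet control, HFD was high fat diet for 16 weeks (its label reads NASH, nonalcoholic steatohepatitis), and HFD+JT003 was the same diet with JT003, a peptide agonist of the adiponectin receptors AdipoR1 and AdipoR2, injected at 0.5 mg/kg each day for 4 weeks. In the fibrosis model, Corn oil was the vehicle control, CCl4 was the liver toxin carbon tetrachloride given for 6 weeks, and CCl4+JT003 received JT003 as well, for 3 weeks. Mice of both models were fasted for 8 h before the livers were taken. The age of 6 to 8 weeks cannot be that at sampling in the diet model, since the diet alone lasted 16 weeks. The sources used here did not state the age or the time of day at sampling, nor how many mice a library stood for. Liver RNA mixes cell types, so fewer cells of a type and less RNA per cell cannot be told apart.

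Peroxisomes shorten very long-chain, branched and dicarboxylic fatty acids that mitochondria handle poorly. ABC transporters bring the acyl-CoA in, each round of shortening makes hydrogen peroxide and ends with a bifunctional enzyme and a thiolase, catalase removes the peroxide, and carnitine acyltransferases pass the shortened chains on to mitochondria. In rodent liver many of these genes are targets of the nuclear receptor PPARα, which is active in fasting and is the receptor of the drugs that make peroxisomes proliferate.

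The libraries held 19374236 to 20184539 rounded expected counts, and the 10 most abundant genes took 15.4% to 19.4% of them. Albumin (Alb) was the most abundant gene of each library and none of the 8 hepatocyte markers was at 0. Ratios below are on the log2 scale, from counts scaled by TMM within a model, and those of the 10 genes in the main comparisons come with a 95% Clopper-Pearson interval, which covers counting error only. With 1 library per condition no spread between mice could be measured, no p-value is given, and a ratio compares 2 libraries. A gene is called past 2-fold when its log2 ratio is at least 1 in size. Without TMM, by total reads alone, the median of all genes was 0.13 between HFD and SD and 0.24 between CCl4 and Corn oil, against 0.00 and 0.01 with it.

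Per length of transcript, Acaa1b was the most abundant of the 10 genes, with a median of 1513 FPKM (the authors' value, which corrects for transcript length and library size) over the 6 libraries, followed by Cat at 1032 FPKM. Ech1 (365 FPKM), Crot (318 FPKM), Hsd17b4 (214 FPKM), Acaa1a (172 FPKM), Abcd3 (170 FPKM) and Decr2 (132 FPKM) lay in the middle. Pex11a had a median of 64.8 FPKM, and Abcd2 was the least abundant at 4.10 FPKM. Together the 10 genes took 1.13% of the reads of SD, 0.678% of HFD, 0.739% of HFD+JT003, 0.882% of Corn oil, 0.835% of CCl4 and 0.772% of CCl4+JT003. SD had the highest share and HFD the lowest.

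**Figure D1:**
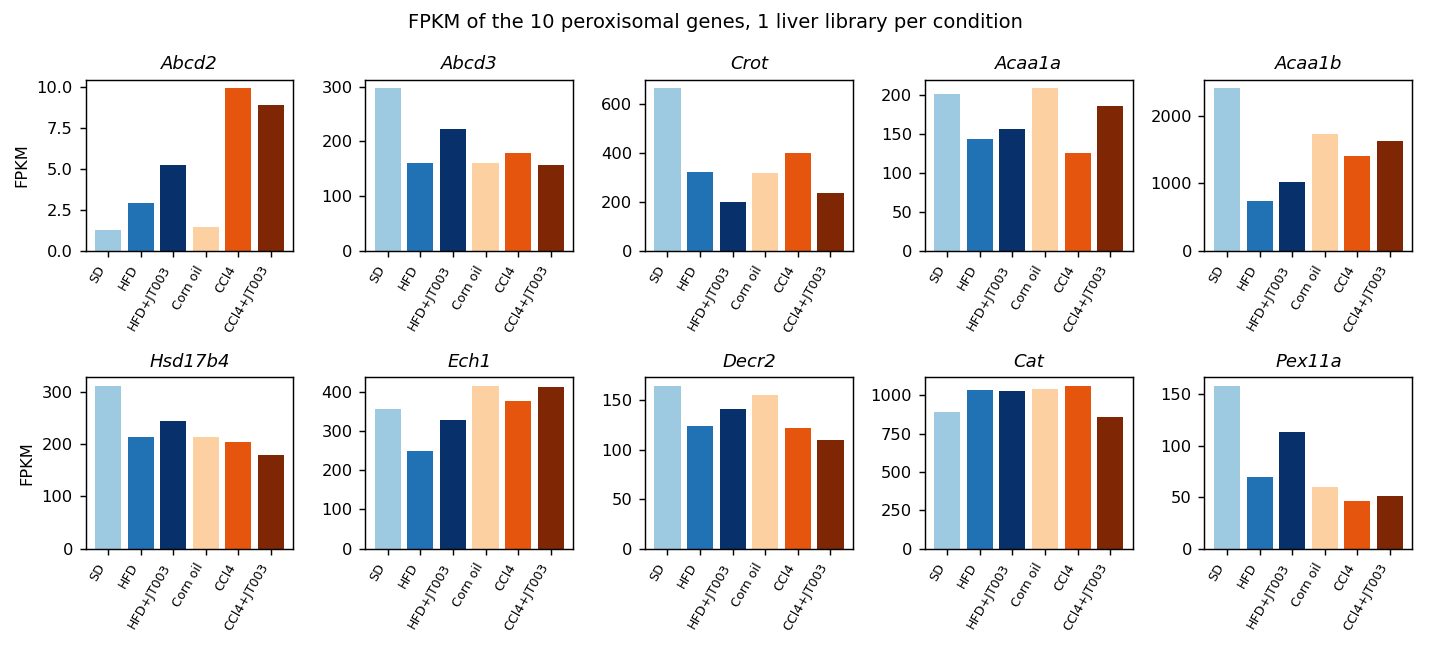
FPKM of each gene (linear vertical axes that start at 0 and differ between panels) in the 6 libraries, 1 bar per library, diet model in blue and CCl4 model in orange. SD is the highest bar for Abcd3, Crot, Acaa1b, Hsd17b4, Decr2 and Pex11a, CCl4 is the highest for Abcd2, and Cat stays between 856 and 1063 FPKM.

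Between HFD and SD, 8 of the 10 genes had a ratio below 0 and the median was -0.66, with 0.00 over all 13334 genes tested. Of the 10 genes, 5 were past 2-fold, 4 of them lower (Acaa1b, Pex11a, Crot and Abcd3) and 1 higher (Abcd2). Past 2-fold were 10.1% of all genes tested, 4.14% being lower and 5.94% higher. By total reads, Abcd3 was no longer past 2-fold and the count was 4 of 10. With a threshold of 1.5-fold, 8 of 10 were past it, 7 of them lower, against 23.6% of all genes. By edgeR's exact test with an assumed coefficient of variation of 0.4 between mice, which was not measured, none of the 10 was called and 0.39% of all genes were. Total reads also moved the split of all calls: 792 genes higher and 552 lower with TMM became 985 higher and 440 lower.

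The transporters and the carnitine acyltransferase move acyl groups into and out of the peroxisome. Abcd3 (PMP70), the abundant half-transporter of the peroxisomal membrane, had 20640, 10827 and 15140 counts in SD, HFD and HFD+JT003. HFD was the lowest of the 3 libraries, with a log2 ratio to SD of -1.02 (-1.06 to -0.99), and HFD+JT003 lay between them, 0.46 (0.43 to 0.50) above HFD. Abcd2 (ALDRP), a related half-transporter for very long-chain and polyunsaturated acyl-CoA, ran the other way, with 143, 328 and 585 counts. Its ratio was 1.10 (0.82 to 1.40) between HFD and SD and a further 0.81 (0.61 to 1.01) between HFD+JT003 and HFD. Per length, Abcd3 exceeded Abcd2 by 236-fold in SD, 54.1-fold in HFD and 42.3-fold in HFD+JT003. Crot, the octanoyltransferase that hands medium-chain products to carnitine for export, had 37871, 17841 and 11177 counts in SD, HFD and HFD+JT003. Its ratio was -1.18 (-1.20 to -1.15) between HFD and SD and -0.70 (-0.73 to -0.66) between HFD+JT003 and HFD, so the treated library was the lowest of the 3.

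The thiolases Acaa1a and Acaa1b carry out the last, cleaving step of each round. They are near copies: the longest open reading frames of their GENCODE M21 transcripts were 1275 bases each and identical at 1231 positions (96.5%), with the longest identical stretch at coding bases 748 to 1074. Bases outside the reading frames were not aligned. The 60-base stretch with the most differences within the frames, coding bases 259 to 318, is shown. Its 11 differing bases, of 44 in the frames, are in capitals:

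Acaa1a: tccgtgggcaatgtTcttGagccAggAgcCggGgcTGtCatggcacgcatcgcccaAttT
Acaa1b: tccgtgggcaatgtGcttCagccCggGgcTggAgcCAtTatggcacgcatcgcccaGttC

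Of all 50-base windows of the Acaa1a transcript, 34.0% occurred unchanged in that of Acaa1b, and 35.5% in the other direction. The expected counts of both genes were fractional in all 6 libraries, a mark of reads divided between features, so the split within the pair is uncertain while their sum is less so. Decr2 was fractional in all 6 libraries as well, Abcd2 in 5 of them, and the other 6 genes were whole throughout.

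Acaa1b had 81183, 24303 and 33606 counts in SD, HFD and HFD+JT003. HFD was the lowest and the ratio to SD, -1.83 (-1.85 to -1.81), was the largest in size among the 10 genes in that comparison. HFD+JT003 stood 0.44 (0.42 to 0.47) above HFD and remained 1.39 below SD, with a ratio of -1.39 (-1.41 to -1.37). Acaa1a had 7168, 4974 and 5491 counts in SD, HFD and HFD+JT003, in the same order but closer together, with ratios of -0.62 (-0.67 to -0.57) and 0.12 (0.06 to 0.18). Acaa1b took 91.9% of the reads of the pair in SD, 83.0% in HFD and 86.0% in HFD+JT003. The summed pair went from 88351 counts in SD to 29277 in HFD and 39097 in HFD+JT003. Hsd17b4, the D-bifunctional protein that hydrates and dehydrogenates branched and very long chains, had 17057, 11381 and 13144 counts, with ratios of -0.67 (-0.71 to -0.64) and 0.19 (0.15 to 0.22).

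**Figure D2:**
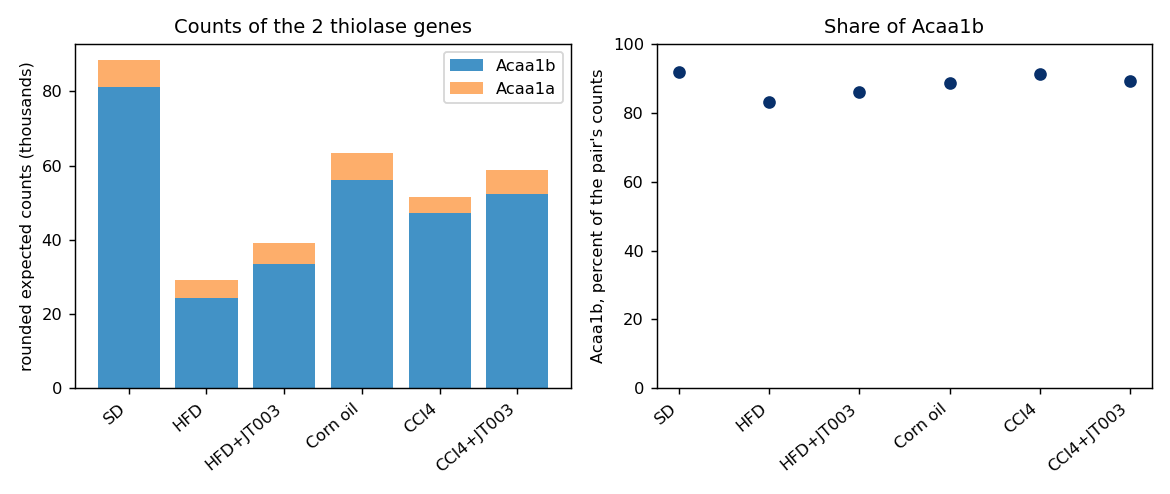
Left, rounded expected counts of Acaa1b (blue) and Acaa1a (orange), stacked, in each of the 6 libraries; right, the share of Acaa1b in the counts of the pair, in percent. The pair is lowest in HFD, at 29277 counts, and the share of Acaa1b runs from 83.0% in HFD to 91.9% in SD.

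The auxiliary enzymes prepare unsaturated chains for the cycle. Ech1, a dienoyl-CoA isomerase found in peroxisomes and mitochondria, had 8074, 5533 and 7317 counts in SD, HFD and HFD+JT003. Its ratio was -0.64 (-0.69 to -0.59) between HFD and SD and 0.38 (0.33 to 0.43) between HFD+JT003 and HFD. Decr2, the peroxisomal dienoyl-CoA reductase, had 6851, 5026 and 5751 counts, with ratios of -0.54 (-0.59 to -0.49) and 0.17 (0.12 to 0.23). Both were lowest in HFD and neither was past 2-fold.

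Pex11a, a membrane protein that elongates peroxisomes before they divide, had 2747, 1178 and 1940 counts in SD, HFD and HFD+JT003. Its ratio was -1.31 (-1.41 to -1.21) between HFD and SD and 0.70 (0.59 to 0.80) between HFD+JT003 and HFD. Cat, the catalase that removes the peroxide, had 46192, 52397 and 52537 counts. It differed least of the 10 genes, by 0.09 (0.07 to 0.11) between HFD and SD and -0.02 (-0.04 to -0.00) between HFD+JT003 and HFD.

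Between HFD+JT003 and HFD, none of the 10 genes was past 2-fold, against 4.71% of the 13452 genes tested. With a threshold of 1.5-fold, 3 of 10 were past it (Abcd2 and Pex11a higher, Crot lower), against 14.4% of all genes. The median of the 10 was 0.28, with -0.004 over all genes tested. Above 0 were 8 of the 10, while 50.4% of all genes were below 0. Both comparisons share the HFD library, so their values for a gene are not independent. Against SD, the treated library had 3 of 10 genes past 2-fold, Abcd2 higher at 1.90 (1.65 to 2.19) and Crot at -1.87 (-1.91 to -1.84) and Acaa1b lower, with 11.1% of all genes past it.

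**Figure D3:**
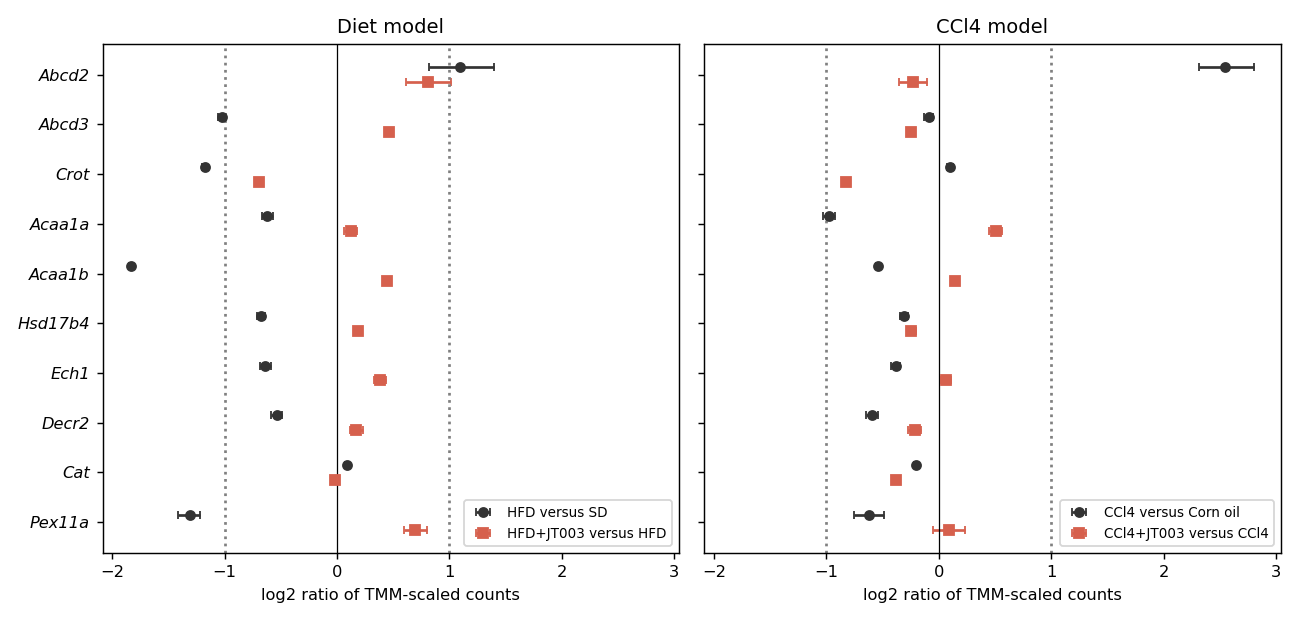
Log2 ratios of TMM-scaled counts (horizontal axis) for the 10 genes in the diet model (left) and the CCl4 model (right), with 95% counting intervals; black circles compare the disease model with its control, red squares compare JT003 with the model, and dotted lines mark 2-fold. In the diet model 8 circles lie below 0 and 8 squares above it, and Crot is the gene with both below 0; in the CCl4 model Abcd2 is the only circle past 2-fold, at 2.54 (TMM within the model).

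The SD library differed from the other control in several of the 10 genes, in both directions. With TMM over all 6 libraries, the median of the 10 for SD over Corn oil was 0.19, with 0.00 over all genes tested. Set against Corn oil, with TMM over all 6 libraries, Pex11a was 1.29 (1.19 to 1.40) higher in SD, Crot 0.97 (0.94 to 1.00), Abcd3 0.79 (0.75 to 0.82), Hsd17b4 0.45 (0.41 to 0.48) and Acaa1b 0.38 (0.37 to 0.40). Ech1, Cat and Acaa1a were lower in SD, by -0.32, -0.32 and -0.15, and the intervals of Decr2 and Abcd2 held 0. With Corn oil in place of SD, 1 of 10 genes was past 2-fold in HFD (Acaa1b, at -1.45), against 15.5% of all genes. The median of the 10 was then -0.23, with Pex11a at -0.02 (-0.14 to 0.10), Crot at -0.21 and Abcd3 at -0.23. Vehicle, model and the length of the model (16 weeks of diet, 6 weeks of CCl4) differed between these controls and cannot be told apart. The study's methods give no diet for the Corn oil mice. Diet, and age at sampling, which was not stated, may have differed too.

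In the CCl4 model, Abcd2 alone was past 2-fold between CCl4 and Corn oil, 1 of 10 genes, against 13.7% of the 13602 genes tested (8.76% higher). The other genes were within 2-fold, Acaa1a just inside at -0.98. The median of the 10 was -0.35, with 0.01 over all genes tested. With TMM over all 6 libraries Acaa1a was past 2-fold as well. With a threshold of 1.5-fold, 4 of 10 were past it (3 lower), against 29.1% of all genes. Under edgeR's test with the same assumed variation, Abcd2 was not called either, and 1.26% of all genes were. By total reads the split of all calls went from 1192 genes higher and 668 lower to 1652 higher and 447 lower.

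Abcd2 had 157, 1127 and 969 counts in Corn oil, CCl4 and CCl4+JT003. Both CCl4-exposed libraries were well above the control, by 2.54 (2.31 to 2.81) and 2.31 (2.08 to 2.58), and they differed from each other by -0.23 (-0.35 to -0.10). Abcd3 had 10774, 12352 and 10489 counts, with a ratio of -0.09 (-0.13 to -0.05) between CCl4 and Corn oil that turned to 0.14 by total reads and 0.15 by FPKM, and one of -0.25 (-0.28 to -0.21) between CCl4+JT003 and CCl4. Per length, Abcd3 exceeded Abcd2 by 113-fold in Corn oil, but by 17.9-fold and 17.7-fold in CCl4 and CCl4+JT003. Crot had 17416, 22785 and 12982 counts, with ratios of 0.10 (0.07 to 0.13) between CCl4 and Corn oil and -0.82 (-0.85 to -0.79) between CCl4+JT003 and CCl4.

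Crot was thus lower in the JT003 library than in the library without it in both models, and was the only one of the 10 genes past 1.5-fold between CCl4+JT003 and CCl4. In that comparison 24.3% of all genes were past 1.5-fold.

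Acaa1a had 7175, 4444 and 6353 counts in Corn oil, CCl4 and CCl4+JT003. CCl4 was the lowest of all 6 libraries for this gene, at -0.98 (-1.03 to -0.92) to Corn oil, and CCl4+JT003 stood 0.50 (0.45 to 0.56) above it. Acaa1b had 56108, 47115 and 52465 counts, in the same order, with ratios of -0.54 (-0.56 to -0.52) and 0.14 (0.13 to 0.16). The share of Acaa1b in the pair was 88.7%, 91.4% and 89.2% across Corn oil, CCl4 and CCl4+JT003. Within the pair, then, Acaa1b was the gene further from its control in the diet model and Acaa1a in the CCl4 library, with the uncertain division of reads given above.

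Hsd17b4 had 11284, 11106 and 9439 counts in Corn oil, CCl4 and CCl4+JT003, with ratios of -0.31 (-0.35 to -0.27) and -0.25 (-0.28 to -0.21). Ech1 had 9091, 8501 and 8958 counts, with ratios of -0.39 (-0.43 to -0.34) and 0.06 (0.02 to 0.11). Decr2 had 6230, 5043 and 4376 counts, with ratios of -0.59 (-0.65 to -0.54) and -0.22 (-0.27 to -0.16). Decr2 and Hsd17b4 were lowest in the treated library of this model, while Ech1 was lowest in CCl4.

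Cat had 52012, 55037 and 42599 counts. Its ratio between CCl4 and Corn oil was -0.21 (-0.22 to -0.19), and turned to 0.03 by total reads and by FPKM, and that between CCl4+JT003 and CCl4 was -0.38 (-0.40 to -0.36). Pex11a had 1009, 800 and 859 counts, with ratios of -0.62 (-0.76 to -0.49) and 0.09 (-0.05 to 0.23). The last interval held 0, so no difference in Pex11a between CCl4+JT003 and CCl4 was detectable at this depth.

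Between CCl4+JT003 and CCl4, none of the 10 genes was past 2-fold, against 8.88% of the 13785 genes tested. The median of the 10 was -0.22, with -0.007 over all genes tested. Against Corn oil, the treated library had 1 of 10 past 2-fold (Abcd2), against 11.4% of all genes, and 4 of 10 past 1.5-fold, against 24% of all genes.

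A second source of CCl4 counts was at hand. A deposited comparison table had a CCl4 column that summed to 2.97 times the CCl4 library and fell below it in 24 genes only, by 0.99 counts at most, so it was read as a sum over several CCl4 libraries that included this one. Less that library, the remainder was set in its place. All 10 genes were higher in the CCl4 library than in the remainder, Acaa1b by 1.10 (1.08 to 1.12) and the other 9 by 0.11 to 0.52. Over the 14545 genes tested, 5.32% were past 2-fold between the library and the remainder, and the median difference in size was 0.25. The share of all genes that were higher in the library was not counted, so the 10 of 10 has no background beside it.

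Set against Corn oil, the remainder had 4 of 10 genes past 2-fold, Abcd2 higher at 2.21 and Acaa1b (-1.64), Acaa1a (-1.37) and Pex11a (-1.01) lower, with 16.7% of all genes past it. The pooled column as deposited had 3 of 10 past it, against 16% of all genes. In the remainder Acaa1b was thus further from its control than Acaa1a, the reverse of the CCl4 library. Set against the remainder, CCl4+JT003 was 1.24 higher for Acaa1b, 0.90 for Acaa1a, 0.58 for Ech1 and 0.48 for Pex11a. Acaa1b was 1 of 10 genes past 2-fold there, against 9.07% of all genes. Abcd2, Abcd3, Hsd17b4, Decr2 and Cat, which were below 0 against the CCl4 library, were at 0.10, 0.04, 0.15, 0.18 and 0.04. Crot kept its sign and size, at -0.72. The median of the 10 went from -0.22 to 0.17, so its sign depended on the CCl4 counts used.

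**Figure D4:**
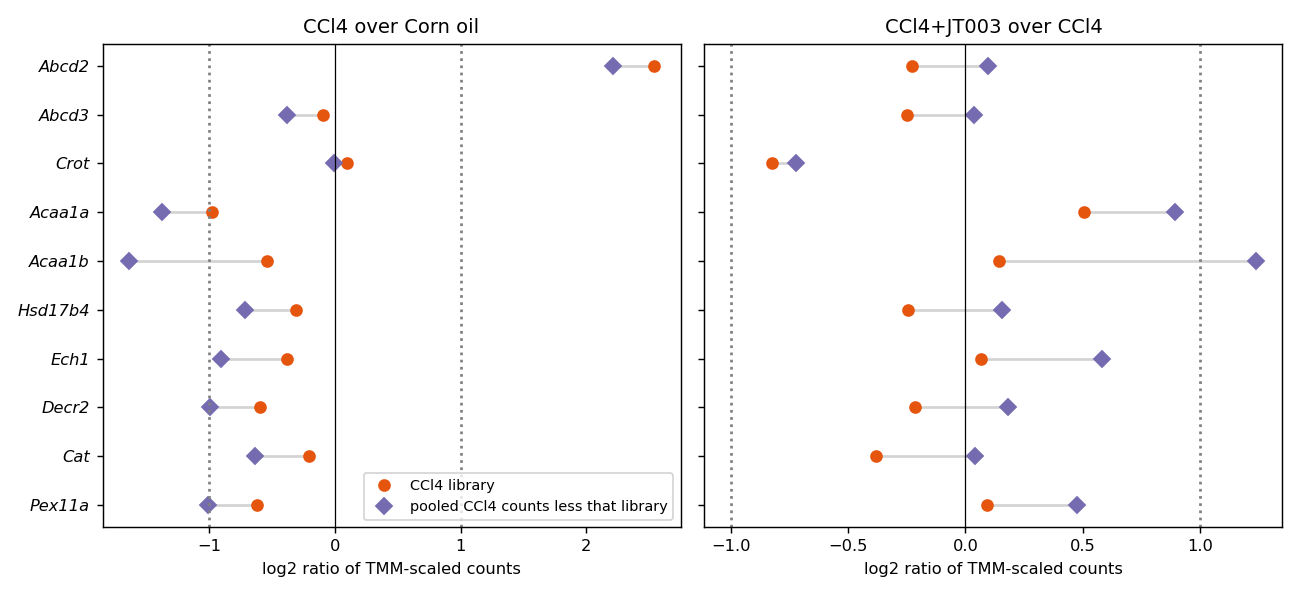
Log2 ratios of TMM-scaled counts (horizontal axes, with different ranges) for the 10 genes, CCl4 over Corn oil (left) and CCl4+JT003 over CCl4 (right), with the CCl4 library (orange circles) or the pooled CCl4 counts less that library (purple diamonds); grey lines join the 2 values of a gene and dotted lines mark 2-fold. Acaa1b has the longest lines, from -0.54 to -1.64 and from 0.14 to 1.24, while Abcd2 (left) and Crot (right) stay within 0.33 of themselves.

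Other genes of the route were taken from a list of 21. Past 2-fold between HFD and SD were 6 of the 21, 5 lower and 1 higher, with a median of -0.20 over the list. Ehhadh, the L-bifunctional enzyme, had 161285, 6754 and 15107 counts in SD, HFD and HFD+JT003, with ratios of -4.67 (between HFD and SD) and 1.14 (between HFD+JT003 and HFD). Crat, the short-chain carnitine acyltransferase, was at -2.28 and 0.56, and the acyl-CoA thioesterases Acot4 and Acot8 were at -1.45 and -1.06 between HFD and SD. Acot4 was 1.62 higher in HFD+JT003 than in HFD. Pecr, a reductase of trans-enoyl-CoA, was the gene past 2-fold that was higher in HFD, at 1.03. In the CCl4 model 1 of the 21 was past 2-fold, Nudt7, a hydrolase of coenzyme A, at -1.77 between CCl4 and Corn oil. Ehhadh was at -0.62 there, and none of the 21 was past 2-fold between CCl4+JT003 and CCl4.

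Of the 18 peroxins and division genes, which import proteins into peroxisomes and shape them, none was past 2-fold in any of the 4 comparisons. Their medians were -0.21 between HFD and SD and -0.04 between HFD+JT003 and HFD. Among 7 genes of alpha-oxidation and ether lipid synthesis, Hacl1 (-1.13) and Aldh3a2 (-1.21) were past 2-fold between HFD and SD, and Phyh (-1.05) between CCl4 and Corn oil. Among 15 other peroxisomal genes, of which 13 were tested in both model comparisons, Agxt (glyoxylate detoxification) was at -1.47 in the diet model and -1.31 in the CCl4 model, and Ephx2 (soluble epoxide hydrolase) at -1.10 and -1.22. Hao1, the glycolate oxidase, was 1.03 higher in HFD than in SD.

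Mitochondrial beta-oxidation, which takes the chains that peroxisomes release, had 3 of 16 genes past 2-fold between HFD and SD, all lower: Hadha (-1.20), Cpt1a (-1.12) and Decr1 (-1.01). The median was -0.78, and 15 of 16 were below 0. Between HFD+JT003 and HFD the median was 0.27 and none was past 2-fold, and none was past it in the 2 comparisons of the CCl4 model either.

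Of 10 PPARα targets outside the peroxisome route, 6 were past 2-fold between HFD and SD, all lower, with a median of -2.61. Cyp4a14, a fatty acid omega-hydroxylase, had 206802, 7401 and 30625 counts in SD, HFD and HFD+JT003, with ratios of -4.90 and 2.03. Its relative Cyp4a10 was at -3.23 and 1.63, Acot1 at -3.35 and 1.37, Fgf21 at -3.30 and 1.44, and Pdk4 at -4.18 and 0.98. Plin2, a lipid droplet coat protein, had 56306, 15017 and 12516 counts in the same order of libraries. The receptor gene Ppara itself had 10866, 9889 and 12188 counts, with ratios of -0.23 and 0.28, both within 2-fold. Pparg was 1.35 higher in HFD, with 100 counts in SD and 275 in HFD. In the CCl4 model, Cyp4a14 (-1.66) and Cyp4a10 (-1.27) were lower in CCl4 than in its control and Pdk4 (2.05) was above it, with Ppara at -0.29. Fgf21 (-1.34) and Plin2 (-1.24) were past 2-fold between CCl4+JT003 and CCl4, and Ppargc1b, a coactivator, was at -1.57 between CCl4 and Corn oil.

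**Figure D5:**
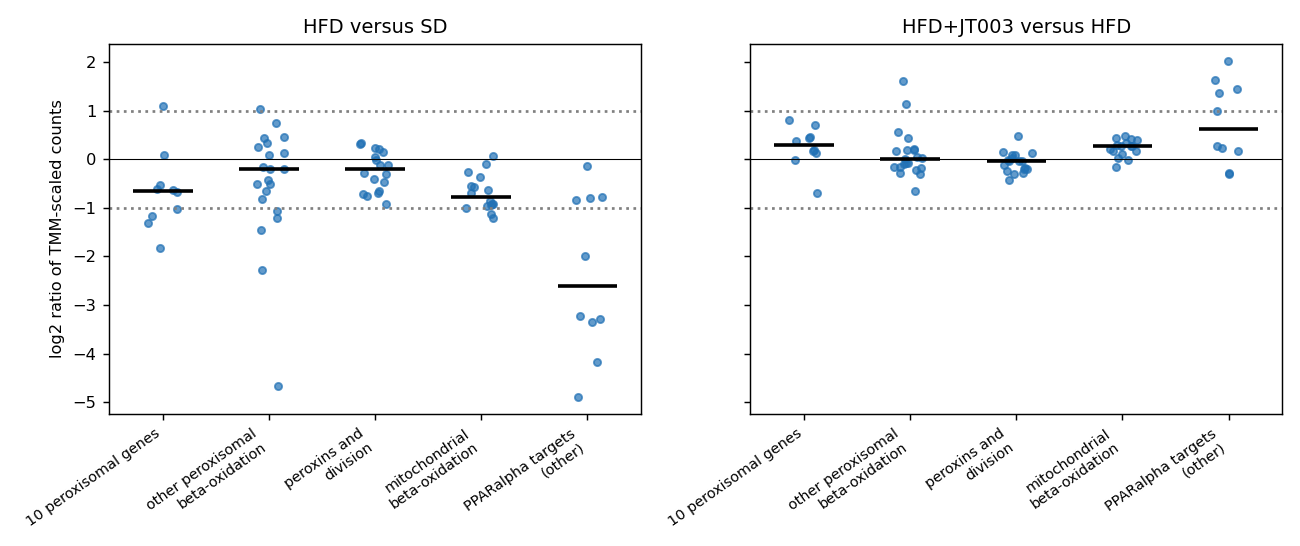
Log2 ratios of TMM-scaled counts (vertical axis) of each gene in 5 groups, HFD versus SD (left) and HFD+JT003 versus HFD (right); points are genes, black bars group medians and dotted lines 2-fold. The medians for HFD versus SD are -0.66 for the 10 genes, -0.20 for other peroxisomal beta-oxidation, -0.21 for peroxins, -0.78 for mitochondrial beta-oxidation and -2.61 for the other PPARα targets.

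Sequence just before the transcription starts was searched for the PPAR response element, a direct repeat of AGGTCA with 1 base between the copies. RefSeq (GRCm38.p6) gave 9 promoter windows, from 250 bases before to 50 after a start, for 8 of the 10 genes, Abcd3 having a pair of starts. The files' own coordinates are not given, and these come from RefSeq. Neither AGGTCANAGGTCA nor the looser AGGNCANAGGNCA (both strands) was in any of the 9 windows, against 0.0396% and 0.381% of all 32851 windows. The half-site AGGTCA, contained in the repeat, was in 1 of 9 windows, that of Cat, against 16.3% of all. CCAAT, a box common in promoters and not overlapping the half-site, was in 4 of 9 (Cat, Crot, Acaa1a and Acaa1b), against 37.4% of all. These counts describe short windows only, and response elements also lie further from the start. The 250 upstream bases are shown for the thiolase pair, the near copies compared above, for Cat, which holds the half-site, and for Pex11a, which holds neither motif; capitals mark CCAAT or AGGTCA on either strand:

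Acaa1a promoter, chr9:119341044-119341293, plus strand: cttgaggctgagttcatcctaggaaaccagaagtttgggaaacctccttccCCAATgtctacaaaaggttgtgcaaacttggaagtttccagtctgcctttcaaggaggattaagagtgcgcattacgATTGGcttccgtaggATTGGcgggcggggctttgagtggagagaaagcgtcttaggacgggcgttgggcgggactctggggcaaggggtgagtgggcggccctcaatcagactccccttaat
Acaa1b promoter, chr9:119157094-119157343, minus strand: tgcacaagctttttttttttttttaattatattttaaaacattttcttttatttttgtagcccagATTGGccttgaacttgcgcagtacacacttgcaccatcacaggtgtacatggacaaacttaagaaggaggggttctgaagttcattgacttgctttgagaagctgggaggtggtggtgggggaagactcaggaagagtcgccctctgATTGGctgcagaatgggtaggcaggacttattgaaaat
Cat promoter, chr2:103485154-103485403, minus strand: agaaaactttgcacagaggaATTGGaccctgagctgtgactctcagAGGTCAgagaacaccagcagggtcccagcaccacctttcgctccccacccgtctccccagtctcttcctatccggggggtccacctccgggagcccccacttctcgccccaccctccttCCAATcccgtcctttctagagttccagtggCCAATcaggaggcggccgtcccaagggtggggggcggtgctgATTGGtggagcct
Pex11a promoter, chr7:79743132-79743381, minus strand: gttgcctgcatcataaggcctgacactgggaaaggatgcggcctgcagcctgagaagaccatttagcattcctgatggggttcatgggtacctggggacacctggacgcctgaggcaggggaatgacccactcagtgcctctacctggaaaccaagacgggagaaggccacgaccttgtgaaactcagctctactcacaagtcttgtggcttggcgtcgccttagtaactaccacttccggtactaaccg

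Several other gene groups moved with the libraries, and their part in the values above was not tested. Of 13 clock genes, 6 were past 2-fold between HFD and SD, 3 between HFD+JT003 and HFD, 7 between CCl4 and Corn oil and 9 between CCl4+JT003 and CCl4. Dbp, an output gene of the clock, had 398, 1738 and 977 counts in the diet libraries (SD, HFD, HFD+JT003) and 824, 96 and 1931 in the CCl4 model (Corn oil, CCl4, CCl4+JT003). Arntl (Bmal1), a core activator whose RNA peaks at the opposite time of day, had 195, 46, 70, 142, 386 and 34 counts in the same order. These 2 genes do not stand for the whole list. Between HFD+JT003 and HFD, 6 of the 13 were below 0 and 7 above, with Nr1d1 at -1.84 and Cry1 at 1.86.

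In CCl4 against Corn oil, 5 of 6 macrophage markers and 8 of 8 mitosis genes were higher past 2-fold. Of 8 markers of pericentral hepatocytes, the zone in which CCl4 is activated, 4 were lower past 2-fold. The pericentral markers did not all go that way, since 3 of the 8 were above 0, 2 of them by more than 1.5-fold. The summed level of the macrophage markers was 57.2, 132 and 153 CPM (TMM-scaled counts relative to library size) in Corn oil, CCl4 and CCl4+JT003, and that of the pericentral markers 12787, 3161 and 4685. The mitosis genes summed to 5.76, 207 and 17.6 CPM. No macrophage or pericentral marker was at 0 in any library, and 1 mitosis gene was at 0 in Corn oil.

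In the diet model, 4 of 8 stellate cell and myofibroblast markers were past 2-fold above SD in the HFD library, and 4 of 8 were past 2-fold below HFD in HFD+JT003. Below 0 between HFD and SD was 1 of 8, and above 0 between HFD+JT003 and HFD were 2 of 8. The 8 markers summed to 181 CPM in SD, 343 in HFD and 250.3 in HFD+JT003. In the CCl4 model, 3 of 8 were higher past 2-fold in CCl4 than in its control and 3 of 8 were lower past 2-fold in CCl4+JT003 than in CCl4. Others went the opposite way. Below 0 between CCl4 and Corn oil were 3 of 8, 2 of them by more than 1.5-fold. Above 0 between CCl4+JT003 and CCl4 were 2 of 8, 1 of them by more than 1.5-fold. The sums were 213, 433 and 289.8 CPM across Corn oil, CCl4 and CCl4+JT003. Of the bile duct markers, 3 of 4 were higher past 2-fold in CCl4, with sums of 15.9, 33.5 and 20.9 CPM in the same order. Of the endothelial markers, 4 of 4 were lower in CCl4 by more than 1.5-fold and 1 of 4 past 2-fold, with sums of 96.6, 51.4 and 82.6 CPM. Of the 7 periportal markers, 1 was lower past 2-fold in CCl4 and none past it in HFD. No stellate, bile duct, endothelial or periportal marker was at 0 in any library. The adipocyte markers found summed to 28.4 CPM in SD, 94.9 in HFD, 79.7 in HFD+JT003, 76.6 for Corn oil, 15.5 for CCl4 and 14.4 for CCl4+JT003, and Adipoq was at 0 in the 3 diet libraries. Abcd2 and the adipocyte sum were both higher in HFD than in SD, and in the CCl4 model Abcd2 was higher and the adipocyte sum lower in CCl4 than in Corn oil.

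Over all 6 libraries, the genes outside these lists whose centred log2 profile lay nearest to the mean profile of the 10 genes were Xylt2 (mean absolute difference 0.03), Atat1, Dhrs4, Wdr73 and Cmas (0.05 each), among 8326 genes with at least 100 counts in every library. The mean profile was 0.39 in SD, -0.27 in HFD, -0.02 in HFD+JT003, 0.11 for Corn oil, -0.03 for CCl4 and -0.17 for CCl4+JT003. Decr2 (0.15) and Hsd17b4 (0.16) were nearest to the mean among the 10 genes, and Abcd2 (1.06) was the farthest from it.

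The order of the 6 libraries differed between the genes. SD was the highest for Abcd3, Crot, Hsd17b4, Acaa1b and Pex11a, Corn oil for Acaa1a, Ech1, Decr2 and Cat, and CCl4 for Abcd2, by TMM over all 6 libraries. The highest library exceeded the lowest by 7.01-fold for Abcd2, 3.86-fold for Pex11a, 3.67-fold for Crot and 3.56-fold for Acaa1b. For the other 6 genes it did so by 1.54-fold (Cat) to 2.24-fold (Abcd3). Neighbours in this order whose interval held 0 were Corn oil and SD for Abcd2 and Decr2, SD and CCl4+JT003 for Ech1, HFD and CCl4, and CCl4 and HFD+JT003, for Cat, and Corn oil and HFD, and CCl4+JT003 and CCl4, for Pex11a. All other neighbours differed beyond counting error, which does not include the spread between mice.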

How the data were processed

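RNA was sequenced from 6 mouse liver libraries, 1 for each of 6 conditions. The submitters' processing notes name HISAT, Bowtie2 and RSEM and the build mm9. For each library the authors deposited an expected count per gene (an estimate of its reads, not normalized) and an FPKM value (corrected for transcript length and library size, by the authors). The authors' comparison tables hold fold changes and p-values and were not used, apart from the pooled CCl4 counts described in the report. The other 6 expression columns of those tables were not used.

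Expected counts were rounded. TMM scaling was done within each model's 3 libraries (R 4.3.3, edgeR 4.0.16), and log2 ratios took a prior count of 2. Genes with fewer than 10 counts in both libraries were left out, and 95% Clopper-Pearson intervals (scipy 1.17.1) cover counting error only. With 1 library per condition no replicate test was possible. The other software was pandas 2.3.3, numpy 2.4.6, matplotlib 3.10.9 and Python 3.11.15. The script was tested on simulated data. Alternatives were total reads, DESeq2 1.42.0 size factors, TMM over 6 libraries, other count minimums, prior counts and thresholds, FPKM on the log2 scale, an exact binomial test, edgeR's exact test with an assumed coefficient of variation, the summed thiolase pair and other CCl4 or control counts.

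The 10 genes and all gene lists were chosen with earlier results of these data known. Of the clock genes, only Dbp, Arntl, Nr1d1 and Cry1 are named, though others met the rule that follows. Outside the clock genes and cell markers, genes of the other lists are named by this rule. They were past 2-fold in at least 1 of 4 comparisons, and their higher library held 100 counts or more. Ehhadh, Ppara, Hadha and Decr1 are named whatever their values. The values of 1 gene that the rule also names are not reported here. The 5 genes nearest to the mean profile are named as well. The markers of hepatocyte zones and other cells are given as counts and sums. Of the listed genes, Dao and Lep were not found. Promoters came from RefSeq and transcripts from GENCODE M21.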

Additional observations from a re-analysis of the deposited data

Results flagged for a closer look

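The JT003 ratios of 4 of the 10 genes had opposite signs in the 2 models, with both counting intervals on one side of 0. The share of all genes with such opposite signs was not counted, so the 4 of 10 has no background beside it. These intervals cover counting error only, so small ratios of well-counted genes lie off 0. The difference between the models was not tested, since each condition had 1 library. Abcd2 was at 0.81 between HFD+JT003 and HFD and at -0.23 between CCl4+JT003 and CCl4. Abcd3 was at 0.46 and -0.25, Hsd17b4 at 0.19 and -0.25, and Decr2 at 0.17 and -0.22. With the pooled CCl4 counts less the CCl4 library, all 4 were above 0 in the CCl4 model too, at 0.10, 0.04, 0.15 and 0.18.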

How the results depend on the processing

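No paired analysis was possible because each condition had 1 library, and leaving out a replicate was impossible for the same reason. Of 328 single-gene values from the same libraries under other settings, 322 kept their sign; the 6 that did not were Abcd3 (0.14 to 0.15) and Cat (0.03) between CCl4 and Corn oil by total reads and by FPKM. Of 50 values with other CCl4 or control counts, 41 kept it. Between HFD and SD, the count past 2-fold was 3 of 10 with log2 of FPKM plus 1 (543 genes called over all, against 1344), 8 with a 1.5-fold threshold, 0 by edgeR's exact test with an assumed coefficient of variation of 0.4 at an adjusted p under 0.05 (52 genes called), 5 by the exact binomial test, and 1 with Corn oil in place of SD, an alternative chosen after seeing the data. The median moved from -0.66 to -0.53 by total reads and by both FPKM scales, and to -0.23 with Corn oil. Between HFD+JT003 and HFD the count was 0 except with the 1.5-fold threshold (3). Between CCl4 and Corn oil it was 2 with TMM over 6 libraries (Acaa1a joining), 4 with the 1.5-fold threshold, 0 by edgeR's test (171 genes called), 3 with the pooled CCl4 counts and 4 with their remainder (the latter chosen after seeing the data). The median there moved from -0.35 to -0.11 by total reads and by FPKM, -0.64 with the pooled counts and -0.81 with the remainder. Between CCl4+JT003 and CCl4 the count was 1 with the 1.5-fold threshold and 1 with the remainder, and the median turned from -0.22 to 0.022 with the pooled counts and 0.17 with the remainder. Against the controls, the treated libraries had 0 of 10 by edgeR's test in both models (46 and 56 genes called) and 4 of 10 with the 1.5-fold threshold in the CCl4 model. The cause of these shifts was not tested, beyond the fewer calls that a stricter rule makes. Depth was similar between libraries, and counting intervals were widest for Abcd2 and Pex11a.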
